A study of Mus musculus with 34 samples.

Results

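The 9 genes described here are the Bcl2 family members that set whether a T cell survives or dies by the mitochondrial route. They were taken by name from the count files, where each of the 9 had its own numeric identifier among 27179 identifiers. All 9 passed the filter on low counts, which kept 11357 genes. By role they are 3 pro-survival genes (Bcl2, Bcl2l1 and Mcl1), 2 effectors (Bax and Bak1) and 4 BH3-only genes (Bcl2l11, Bid, Bbc3 and Pmaip1).

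RNA was counted in 34 libraries of naive CD4 T cells from C57BL/6 mice, which were stimulated through CD3 and CD28 with plate-bound antibodies for 3.5 days and then sorted by flow cytometry. The labels give 6 groups: Tfh2_1e4 (6 libraries), Tfh2_2e4 (5), Tfh2_4e4 (6), Tfh2_6e4 (6), Tfh5_4e4 (6) and TfhA_4e4 (5). The meaning of the codes Tfh2, Tfh5 and TfhA, the unit behind the number and the gate of the sort are not stated in them, and no mutant allele is named. Separate mice or cultures are not named for the libraries of a group, and p-values therefore measure only the spread between these samples, which may be technical. These are bulk samples, in which fewer cells that express a gene and less RNA per cell cannot be told apart.

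Proteins of the Bcl2 family meet at the outer membrane of the mitochondrion. Bax and Bak open pores in it, which release cytochrome c and switch on caspases. Bcl-2, Bcl-xL (the product of Bcl2l1) and Mcl-1 hold Bax and Bak in check, and BH3-only proteins such as Bim (Bcl2l11), Puma (Bbc3), Noxa (Pmaip1) and cleaved Bid overcome that block. In T cells, cytokine signals are known to sustain Bcl-2 and Mcl-1, and Bim removes cells that recognise self or that lose cytokine support after a response. Much of this control acts on proteins, and Mcl-1 and Noxa turn over fast, so the mRNA levels given here are only part of it.

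Several members are textbook targets of transcription factors whose signals differ between T cell states, so promoter letters were read from RefSeq (GRCm38.p6). Of the 9 members 8 were searched, with 13 windows of 300 bases between them (250 before and 50 after a start site). Pmaip1 was left out of the search, so nothing is said of its promoter. Each window was searched on both strands for 5 motifs, and 2 windows held a match, both to the FOXO motif GTAAACA. The 250 bases before the start of these windows carry no annotated exon and are shown in the direction of transcription, with the match in capitals. The first is the Bim gene at chr2:128125788-128126037, plus strand, with the motif from -227 to -221.
Bcl2l11: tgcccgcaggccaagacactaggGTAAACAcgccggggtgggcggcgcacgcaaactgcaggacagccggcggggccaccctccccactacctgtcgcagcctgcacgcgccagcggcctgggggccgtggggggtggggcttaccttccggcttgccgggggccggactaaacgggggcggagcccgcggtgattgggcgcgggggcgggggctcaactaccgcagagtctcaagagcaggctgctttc
The second is an internal start of the Puma gene at chr7:16310011-16310260, plus strand, with the motif read on the minus strand (TGTTTAC in the letters shown) from -167 to -161.
Bbc3: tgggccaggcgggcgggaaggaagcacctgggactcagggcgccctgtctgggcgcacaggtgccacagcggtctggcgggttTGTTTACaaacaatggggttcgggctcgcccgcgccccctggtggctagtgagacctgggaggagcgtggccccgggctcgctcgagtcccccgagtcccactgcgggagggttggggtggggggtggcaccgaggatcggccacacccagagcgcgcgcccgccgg
Of 32851 RefSeq promoter windows of this length, 3.65% hold the FOXO motif. No window searched, which excludes Pmaip1, held the STAT motif TTCNNNGAA (8.3% of all windows), the AP-1 motif TGANTCA (7.81%), the CRE motif TGACGTCA (1.79%) or a full p53 site (0.0731%). A match describes letters and is not evidence that a factor binds there.

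Total counts were 4481509 to 9934245 per library. Levels below are CPM, counts scaled to the TMM-normalised library total. Because 3-prime libraries count transcript ends, these levels do not scale with transcript length. Levels of different genes are set side by side on that basis, but only approximately. Some counts could include reads of overlapping genes, and the strand setting is not given. Mitochondrial rRNA took 14.8% ± 2.19 (SD, n = 5) of the counts in TfhA_4e4, leaving out the 2 largest identifiers, 9.81% in Tfh5_4e4 and 8.41%, 9.38%, 9.92% and 10.2% as group means across the Tfh2 numbers. This share therefore moves with every TfhA_4e4 result and, by less, with the Tfh2 numbers. All 6 T cell markers had counts, with a summed level of 1254.9 to 1921 CPM per library. It was 1305 to 1397 CPM in TfhA_4e4 and 1567 to 1876 CPM in Tfh2_4e4, with no overlap. Summed B cell markers reached 5.36 to 24.2 CPM (6 of 6 with a count), with Cd79a, Ms4a1 and Cd22 each at 0 in 5 of the 6 groups. Myeloid markers summed to 0 to 2.01 CPM (6 of 6 with a count), CD8 markers to 3.85 to 15.5 CPM (2 of 2) and NK cell markers to 0 to 3.59 CPM (2 of 4, Ncr1 and Klra8 at 0). Library Tfh2_4e4 replicate 3 stood apart from its group in Bcl2l1 (78.2 CPM against 35.5 to 51.2), and Tfh2_2e4 replicate 6 had the highest summed B cell markers (24.2 CPM). Member results that change without this pair are given both ways.

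**Figure D1:**
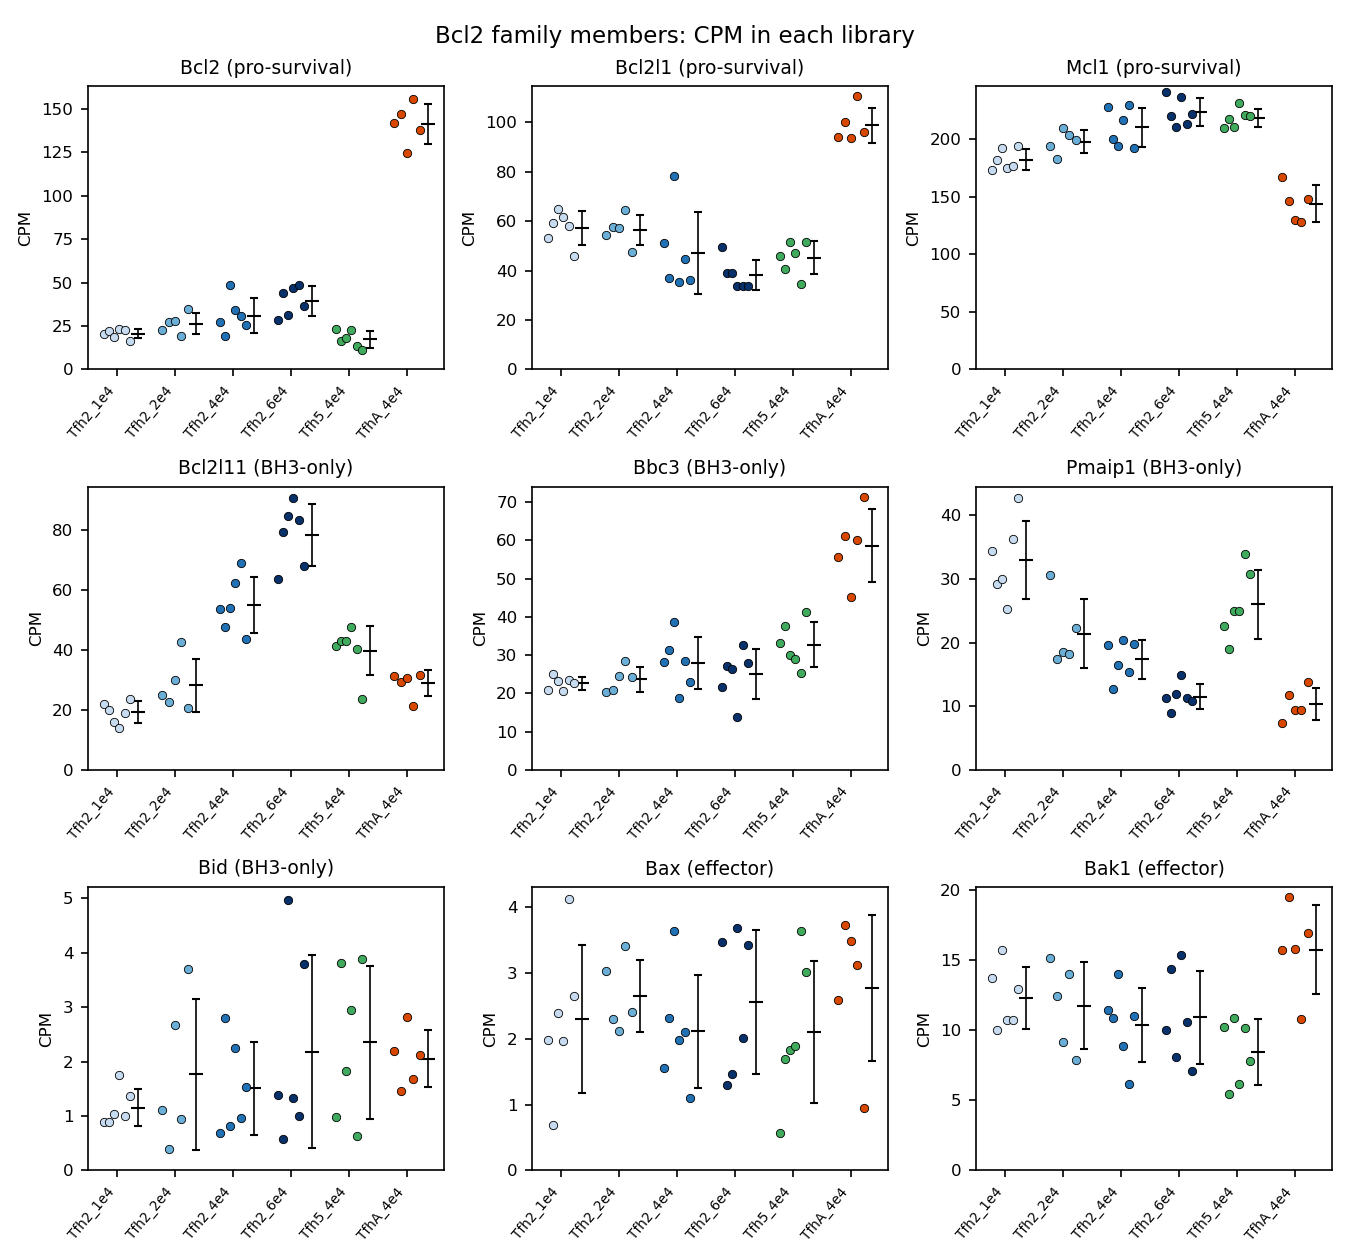
CPM of each of the 9 genes (y axis, from 0) in every library, by group (x axis). Points are libraries, the dash with its bar is the mean ± SD, and each panel has its own y scale. Bcl2, Bcl2l1 and Bbc3 are highest in TfhA_4e4, and Bcl2l11 climbs and Pmaip1 declines across the Tfh2 numbers. Bax and Bid reach at most 4.13 and 4.98 CPM in any library.

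The comparison of TfhA_4e4 with Tfh2_4e4 asks how the family differed between these codes at the same label number. In TfhA_4e4 the pro-survival genes did not move together: Bcl2 and Bcl2l1 rose and Mcl1 fell. The BH3-only genes split as well, with Bbc3 higher and Bcl2l11 and Pmaip1 lower. Of the 9 members 7 passed edgeR's quasi-likelihood test at a Benjamini-Hochberg adjusted p of 0.05, 4 of them higher and 3 lower. Over all genes tested 32.8% passed, 15.5% as higher and 17.4% as lower. The median absolute log2 fold change was 0.75 over the members and 0.39 over all genes tested.

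Bcl2, which encodes the founding survival protein and lies on chromosome 1 (106538176 to 106714290, identifier 12043), changed most. Its level in the TfhA_4e4 libraries was 142.0, 146.9, 124.7, 156.0 and 138.0 CPM. In Tfh2_4e4 it ranged from 19.0 to 48.5 CPM with a median of 28.9. The groups did not overlap, and the lowest TfhA_4e4 library stood well above the highest Tfh2_4e4 library. Bcl2 was 4.58-fold higher in TfhA_4e4, a log2 fold change of 2.20 (standard error 0.18; in edgeR, adjusted p = 4.70e-14, with 5 of 5 libraries higher).

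Bcl2l1 (chromosome 2, 152758732 to 152833803, identifier 12048), whose main product Bcl-xL protects activated lymphocytes, also rose. TfhA_4e4 libraries had 93.9, 100.1, 93.7, 110.7 and 96.2 CPM, and Tfh2_4e4 had 35.5 to 78.2 CPM with a median of 40.7. No libraries overlapped, although Tfh2_4e4 replicate 3 alone supplied the value of 78.2. The log2 fold change was 1.07 (standard error 0.15; in edgeR, adjusted p = 7.47e-08), and it was 1.27 without that library and Tfh2_2e4 replicate 6.

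Mcl1 (chromosome 3, 95656944 to 95663179, identifier 17210), which encodes a short-lived survival protein that T cells need at all stages, went the other way. Its TfhA_4e4 values were 167.5, 146.1, 130.0, 128.6 and 148.6 CPM, all under the Tfh2_4e4 range of 192.2 to 230.0 (median 208.8). Mcl1 fell by 0.55 on the log2 scale (standard error 0.082; in edgeR, adjusted p = 6.23e-07), or 1.46-fold. In TfhA_4e4 the mean levels of Mcl1 (144 ± 15.9 CPM, n = 5) and Bcl2 (142 ± 11.6) were nearly the same, whereas in Tfh2_4e4 they were 210 ± 16.8 and 30.9 ± 10.03 CPM (n = 6).

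Among the BH3-only genes, Bbc3 (chromosome 7, 16308398 to 16318334, identifier 170770) encodes Puma, which can bind every pro-survival protein of the family. Its libraries had 55.7, 61.1, 45.1, 60.1 and 71.2 CPM in TfhA_4e4 and 18.9 to 38.6 CPM (median 28.3) in Tfh2_4e4, with no overlap. Bbc3 rose by 1.06 on the log2 scale (standard error 0.16; in edgeR, adjusted p = 7.95e-07, with 5 of 5 libraries higher).

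Bcl2l11 (chromosome 2, 128126038 to 128162547, identifier 12125) encodes Bim, the main trigger of T cell death after cytokine loss. It was at 31.4, 29.4, 30.7, 21.2 and 31.5 CPM in TfhA_4e4 and at 43.8 to 69.2 CPM (median 53.9) in Tfh2_4e4. The groups did not overlap, and replicate 5 was the lowest of the TfhA_4e4 libraries. Bcl2l11 fell by 0.94 (standard error 0.17; in edgeR, adjusted p = 1.47e-05).

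Pmaip1 (chromosome 18, 66458604 to 66465558, identifier 58801) encodes Noxa, which binds mainly Mcl-1. Its values were 7.36, 11.8, 9.45, 9.35 and 13.9 CPM in TfhA_4e4 and 12.7 to 20.3 CPM (median 18.0) in Tfh2_4e4. The highest TfhA_4e4 library lay within the Tfh2_4e4 range. Pmaip1 fell by 0.75 (standard error 0.19; in edgeR, adjusted p = 0.00128, with 5 of 5 libraries lower).

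The effectors had lower CPM than the pro-survival genes. Bak1 (chromosome 17, 27019812 to 27028627, identifier 12018) had 15.7, 19.5, 15.8, 10.8 and 16.9 CPM in TfhA_4e4 against 6.13 to 14.0 CPM (median 10.9) in Tfh2_4e4, and the groups overlapped. Its log2 fold change of 0.59 (standard error 0.22; in edgeR, adjusted p = 0.0374) was near the threshold. The call was lost without any of 8 of the 11 libraries compared (Tfh2_4e4 replicates 2, 4, 5 and 6 and TfhA_4e4 replicates 1, 2, 3 and 6), where the log2 fold change was 0.47 to 0.60 and the edgeR adjusted p 0.0512 to 0.115. It was also lost with no filter on low counts (edgeR adjusted p = 0.0573).

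Bax (chromosome 7, 45461695 to 45466903, identifier 12028) and Bid (chromosome 6, 120893119 to 120917062, identifier 12122) did not pass. Bax averaged 2.77 ± 1.11 CPM (n = 5) in TfhA_4e4 and 2.11 ± 0.862 (n = 6) in Tfh2_4e4, from 82 and 97 counts in all. Its log2 fold change was 0.40 with a 95% interval from -0.47 to 1.26 (edgeR adjusted p = 0.521). Bid averaged 2.05 ± 0.527 and 1.51 ± 0.856 CPM, from 58 and 71 counts, with a log2 fold change of 0.42 and an interval from -0.68 to 1.52 (edgeR adjusted p = 0.602). The intervals are wide enough to hold more than a doubling, so these counts do not show that the 2 genes stayed level.

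T cell markers moved with this comparison, 3 of 6 lower (Cd3e, Cd3d and Cd28) and none higher, and their part in the member results was not tested. With the mitochondrial rRNA share as a covariate in edgeR, the same 7 members passed in this comparison. Bcl2 was then higher by 1.96 (adjusted p = 5.22e-08) and Pmaip1 lower, with a log2 fold change of -1.04 (adjusted p = 0.00297).

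**Figure D2:**
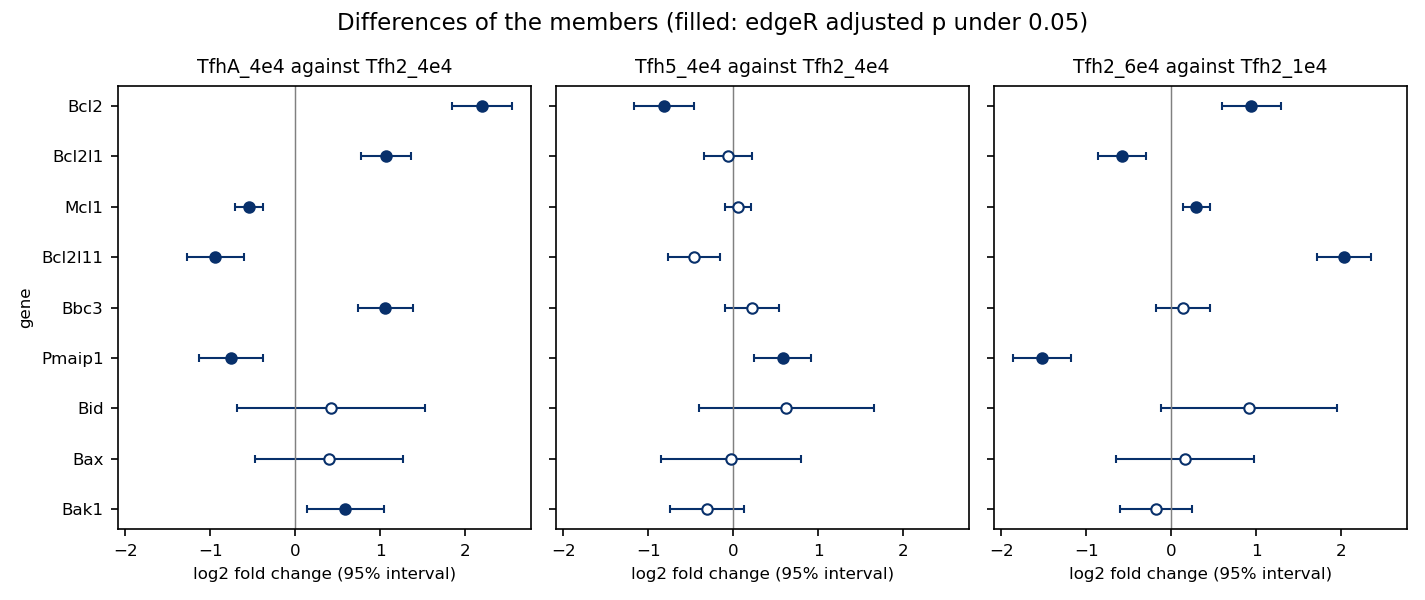
Log2 fold change (x axis) of each member (y axis) with its 95% interval from the edgeR fit, for TfhA_4e4 against Tfh2_4e4, Tfh5_4e4 against Tfh2_4e4 and Tfh2_6e4 against Tfh2_1e4. Filled points have an adjusted p under 0.05: 7, 2 and 5 of 9 members, with Bcl2 at 2.20 in the first panel and Bcl2l11 at 2.03 in the third, while the intervals of Bax and Bid cross 0 in each panel.

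Tfh5_4e4 differed far less from Tfh2_4e4, with which it shares the label number. The TfhA_4e4 and Tfh5_4e4 comparisons use the same Tfh2_4e4 libraries, so their values are given side by side and not as separate evidence. Bcl2 fell and Pmaip1 rose, which made 2 of 9 members (1 higher and 1 lower). Of all genes 3.11% passed, 1.41% as higher and 1.70% as lower. None of the 6 T cell markers passed, while Ighm, the 1 of 6 B cell markers that could be tested, was higher by 0.89 (edgeR adjusted p = 0.0235), and its part in the member results was not tested.

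Bcl2 was at 11.1 to 23.4 CPM (median 17.0) in the 6 Tfh5_4e4 libraries, which overlapped the Tfh2_4e4 range of 19.0 to 48.5. It fell by 0.82 on the log2 scale (standard error 0.17; in edgeR, adjusted p = 0.00302, with 6 of 6 libraries under the Tfh2_4e4 mean). Its direction in Tfh5_4e4 was thus opposite to its direction in TfhA_4e4 against the same Tfh2_4e4 libraries.

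Pmaip1 was at 19.0 to 33.9 CPM (median 24.9) in Tfh5_4e4, above the Tfh2_4e4 mean in 6 of 6 libraries, with some overlap. It rose by 0.58 (standard error 0.17; in edgeR, adjusted p = 0.039). This call was lost without any of 7 of the 12 libraries (Tfh2_4e4 replicates 2, 3, 5 and 6 and Tfh5_4e4 replicates 3, 5 and 6), with log2 fold changes of 0.49 to 0.60 and adjusted p of 0.052 to 0.126. Without Tfh2_4e4 replicate 3 and Tfh2_2e4 replicate 6 together it was 0.57 (edgeR adjusted p = 0.075).

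The other 7 members did not pass. Bcl2l11 had 23.7 to 47.5 CPM (median 42.1) in Tfh5_4e4, under the Tfh2_4e4 mean in 6 of 6 libraries, with a log2 fold change of -0.46 and a 95% interval from -0.77 to -0.15 (edgeR adjusted p = 0.0906). Without Tfh2_4e4 replicate 6 it passed (-0.54, edgeR adjusted p = 0.0494). Mcl1 had the narrowest interval, from -0.099 to 0.21 around 0.057, at 210.2 to 231.8 CPM. Bcl2l1 had an interval from -0.34 to 0.22, and Bbc3 from -0.093 to 0.53.

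Between TfhA_4e4 and Tfh5_4e4 7 of 9 members passed, 4 higher and 3 lower in TfhA_4e4, where 39.5% of all genes passed (19.1% higher and 20.4% lower). They were the members that passed against Tfh2_4e4, each in the same direction, and both comparisons use the TfhA_4e4 libraries. Bcl2 was 8.07-fold higher (log2 fold change 3.01, standard error 0.18; in edgeR, adjusted p = 3.01e-18), and no libraries overlapped. Pmaip1 showed the largest fall, by 1.33 (standard error 0.19; in edgeR, adjusted p = 9.05e-08), and its libraries did not overlap either. Bak1 rose by 0.90 (standard error 0.23; in edgeR, adjusted p = 0.00121), although its ranges overlapped.

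Bcl2l11 was lower in TfhA_4e4 than in Tfh5_4e4 by a log2 fold change of -0.47 (standard error 0.17; in edgeR, adjusted p = 0.0206). That call was lost in 2 settings. Without TfhA_4e4 replicate 5 the log2 fold change was -0.39 (edgeR adjusted p = 0.0773), and with the mitochondrial rRNA share as a covariate it was -0.50, no smaller, with an adjusted p of 0.144. The log2 fold changes of Bcl2l1 (1.13), Bbc3 (0.84) and Mcl1 (-0.60) passed with edgeR adjusted p of 1.67e-08, 3.30e-05 and 5.57e-08.

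Within Tfh2 the label number went from 1e4 to 6e4 over 23 libraries. Bcl2l11 rose most with the number and Pmaip1 fell most, so these BH3-only genes moved in opposite directions. Bcl2 and Mcl1 rose and Bcl2l1 fell. As a slope of the group means per doubling of the number 5 of 9 members passed, 3 higher and 2 lower, and 46.9% of all genes did (24.1% higher and 22.8% lower). A share this near the background is not a result about the family as such. All 6 T cell markers passed in this slope as well (5 higher, and Lck lower), the B cell marker Ighm was lower (-0.33), and both mitochondrial rRNAs were higher (median 0.16). The part of the markers in the member results was not tested. With the mitochondrial rRNA share as a covariate the slopes of Bcl2l11 and Pmaip1 were 0.80 and -0.59, and both still passed. Between the ends, Tfh2_6e4 against Tfh2_1e4, the same 5 passed in the same directions, against 43.0% of all genes (22.3% higher and 20.7% lower).

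Bcl2l11 rose from 13.9 to 23.7 CPM (median 19.6) in Tfh2_1e4 through 20.6 to 42.6 (median 24.9) in Tfh2_2e4 and 43.8 to 69.2 (median 53.9) in Tfh2_4e4 to 63.8 to 90.7 (median 81.3) in Tfh2_6e4. Libraries of the end groups did not overlap. The slope was 0.80 per doubling on the log2 scale (standard error 0.058; in edgeR, adjusted p = 1.02e-15), and the end groups differed 4.08-fold (log2 fold change 2.03, standard error 0.16; in edgeR, adjusted p = 1.56e-14).

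Pmaip1 ran the opposite course. Its CPM was 25.3 to 42.7 (median 32.1) in Tfh2_1e4, 17.4 to 30.5 (median 18.4) in Tfh2_2e4, 12.7 to 20.3 (median 18.0) in Tfh2_4e4 and 8.91 to 14.9 (median 11.2) in Tfh2_6e4. The end groups did not overlap. It fell by 0.55 per doubling (standard error 0.060; in edgeR, adjusted p = 1.83e-10) and was 2.87-fold lower at 6e4 than at 1e4.

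Bcl2 had 16.6 to 23.1 CPM (median 21.0) in Tfh2_1e4 and 28.4 to 48.6 (median 40.2) in Tfh2_6e4, with no overlap. Its slope was 0.34 (standard error 0.062; in edgeR, adjusted p = 1.08e-05), and the fold between the ends was 1.92. Even the highest Tfh2 library, at 48.6 CPM, was below every TfhA_4e4 library.

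Mcl1 moved least among those that passed, from 173.3 to 194.5 CPM (median 179.4) in Tfh2_1e4 to 210.5 to 240.9 (median 221.4) in Tfh2_6e4, and its end groups did not overlap. Its slope was 0.11 (standard error 0.028; in edgeR, adjusted p = 9.88e-04). Bcl2l1 went from 45.8 to 64.9 CPM (median 58.8) to 33.6 to 49.4 (median 36.5), with overlap through Tfh2_6e4 replicate 1, and its slope was -0.22 (standard error 0.050; in edgeR, adjusted p = 3.27e-04).

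The remaining 4 members had no slope past the threshold. The estimate for Bbc3 was 0.083 with a 95% interval from -0.031 to 0.20, and for Bak1 -0.083 with an interval from -0.24 to 0.069. Bax, at 0.011, had an interval from -0.28 to 0.30, and Bid, at 0.28, from -0.10 to 0.65. The interval was widest for Bid, which had the fewest counts.

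The single steps between neighbouring numbers gave fewer calls. From 1e4 to 2e4 2 of 9 members passed, 1 higher and 1 lower, where 5.26% of all genes did (4.06% higher and 1.20% lower). Bcl2l11 rose by 0.54 (standard error 0.17; in edgeR, adjusted p = 0.0443) and Pmaip1 fell by 0.62 (standard error 0.17; in edgeR, adjusted p = 0.0199). The Bcl2l11 call was lost without any of 6 of the 11 libraries (Tfh2_1e4 replicates 2, 3, 4 and 5 and Tfh2_2e4 replicates 4 and 5), with log2 fold changes of 0.36 to 0.55 and adjusted p of 0.0654 to 0.3035. It was also lost, at nearly the same log2 fold change, with the mitochondrial rRNA share as a covariate (0.54, edgeR adjusted p = 0.0611) and in a fit of only the 2 groups (0.53, adjusted p = 0.11). The Pmaip1 call was lost without any of 4 libraries (Tfh2_1e4 replicate 6 and Tfh2_2e4 replicates 2, 4 and 5), with log2 fold changes of -0.57 to -0.54 and adjusted p of 0.0661 to 0.0765.

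From 2e4 to 4e4 only Bcl2l11 passed, 1 of 9 members against 13.0% of all genes (7.59% higher and 5.40% lower). It rose by 0.98 (standard error 0.17; in edgeR, adjusted p = 2.70e-05), from 20.6 to 42.6 CPM to 43.8 to 69.2 CPM with no overlap. Bcl2l1, with a log2 fold change of -0.26 (edgeR adjusted p = 0.284), passed without Tfh2_4e4 replicate 3 (-0.47, adjusted p = 0.00883).

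From 4e4 to 6e4 none of the 9 passed in the main edgeR fit, where 1.48% of all genes did (0.616% higher and 0.863% lower). At an unadjusted edgeR p under 0.05 there were 4: Bcl2, Bcl2l1, Bcl2l11 and Pmaip1. The 1.48% does not apply to this looser threshold, so the 4 are not a result about the family. DESeq2 called 2, Bcl2l11 (log2 fold change 0.52, adjusted p = 0.0374) and Pmaip1 (-0.58, adjusted p = 0.0394). In edgeR Bcl2l11 was at 0.51 (95% interval 0.20 to 0.81, adjusted p = 0.0815) and Pmaip1 at -0.59 (-0.94 to -0.25, adjusted p = 0.0659). In edgeR with no filter on low counts Bcl2l11 passed (0.51, adjusted p = 0.0364), and with the mitochondrial rRNA share as a covariate Pmaip1 did (-0.61, adjusted p = 0.0461). With the replicate number as a block in edgeR, Bcl2l11 (0.51, adjusted p = 0.0321) and Pmaip1 (-0.59, adjusted p = 0.0273) both passed. Without Tfh2_4e4 replicate 4, Tfh2_4e4 replicate 5 or Tfh2_6e4 replicate 1 Bcl2l11 passed (0.56 to 0.58, edgeR adjusted p 0.0457 to 0.0486), and without Tfh2_4e4 replicate 2 Pmaip1 did (-0.67, adjusted p = 0.0358).

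Ordered by mean level, Bcl2 stood at 142 CPM in TfhA_4e4, 39.3 in Tfh2_6e4, 30.9 in Tfh2_4e4, 26.3 in Tfh2_2e4, 20.5 in Tfh2_1e4 and 17.4 in Tfh5_4e4. Among neighbours in this order the test was passed by TfhA_4e4 against Tfh2_6e4 alone (edgeR adjusted p = 4.51e-12). Bcl2l1 followed with 98.9 CPM in TfhA_4e4, 57.2 in Tfh2_1e4, 56.3 in Tfh2_2e4, 47.1 in Tfh2_4e4, 45.2 in Tfh5_4e4 and 38.1 in Tfh2_6e4, and again only the first neighbours passed (edgeR adjusted p = 1.41e-05). For Mcl1 the single call between neighbours was at the bottom, between 182.5 CPM in Tfh2_1e4 and 144 in TfhA_4e4 (edgeR adjusted p = 6.51e-04). The groups above were at 198 in Tfh2_2e4, 210 in Tfh2_4e4, 219 in Tfh5_4e4 and 224 in Tfh2_6e4.

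Bcl2l11 was highest in Tfh2_6e4 (78.3 CPM), then Tfh2_4e4 (55.1), Tfh5_4e4 (39.8), TfhA_4e4 (28.8), Tfh2_2e4 (28.1) and Tfh2_1e4 (19.1). Neighbours passed between Tfh5_4e4 and TfhA_4e4 and between Tfh2_2e4 and Tfh2_1e4, the calls that were lost without single libraries above. Bbc3 was at 58.7 CPM in TfhA_4e4, 32.7 in Tfh5_4e4, 28.1 in Tfh2_4e4, 24.9 in Tfh2_6e4, 23.7 in Tfh2_2e4 and 22.7 in Tfh2_1e4, and only TfhA_4e4 and Tfh5_4e4 passed (edgeR adjusted p = 3.30e-05). No neighbours passed for Pmaip1, which went from 32.9 CPM in Tfh2_1e4 through 26.0 in Tfh5_4e4, 21.4 in Tfh2_2e4, 17.3 in Tfh2_4e4 and 11.5 in Tfh2_6e4 to 10.4 in TfhA_4e4. None passed for Bak1 (8.42 to 15.7 CPM), Bax (2.10 to 2.77 CPM) or Bid (1.15 to 2.35 CPM).

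The make-up of each class is given as a description, with no test, since it is computed from the members themselves. Mcl1 supplied 70.2% to 77.8% of the summed pro-survival CPM as group means in the Tfh2 and Tfh5 groups but 37.5% ± 3.27 (SD, n = 5) in TfhA_4e4. Bcl2 supplied 6.17% to 13.0% in those groups and 36.8% ± 1.70 in TfhA_4e4, and Bcl2l1 12.6% to 21.9% and 25.8% ± 1.80. For Bcl2 and Mcl1 no TfhA_4e4 library overlapped a library of another group. The lowest Mcl1 share outside TfhA_4e4, 60.6%, was in Tfh2_4e4.

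Among the BH3-only genes the leading transcript differed by group. In Tfh2_1e4 it was Pmaip1, with 43.2% ± 3.02 (n = 6) of the summed BH3-only CPM, and in Tfh2_6e4 Bcl2l11, with 66.9% ± 4.65 (n = 6). In TfhA_4e4 it was Bbc3, with 58.6% ± 4.99 (n = 5). The Bcl2l11 share was 25.1% ± 2.29, 37.0% ± 7.004, 53.8% ± 5.29 and 66.9% ± 4.65 across the Tfh2 numbers while that of Pmaip1 was 43.2% ± 3.02, 28.8% ± 7.44, 17.2% ± 3.73 and 9.87% ± 1.74. Tfh5_4e4 held a mixed set, at 39.4% ± 7.84 for Bcl2l11, 32.5% ± 5.94 for Bbc3 and 25.8% ± 5.60 for Pmaip1.

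**Figure D3:**
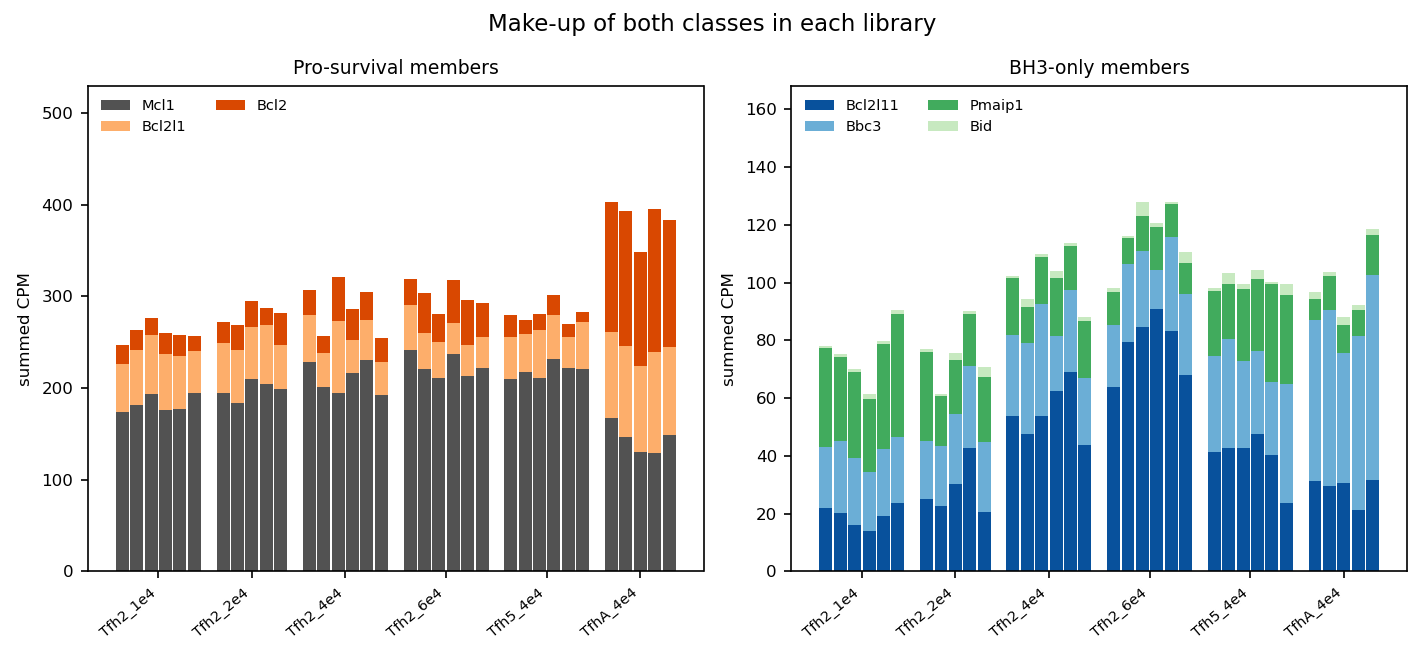
Stacked CPM (y axis) of the 3 pro-survival genes and of the 4 BH3-only genes in each of the 34 libraries, arranged by group (x axis). Bcl2 and Bcl2l1 make up more of the pro-survival stack in TfhA_4e4, where Mcl1 is 37.5% of it, and the largest BH3-only part passes from Pmaip1 in Tfh2_1e4 to Bcl2l11 in Tfh2_6e4 and is Bbc3 in TfhA_4e4.

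The summed pro-survival CPM was 385 ± 21.6 (n = 5) in TfhA_4e4 and 260 to 302 as group means elsewhere, and the summed pro-death CPM (effectors and BH3-only) was 118 ± 13.1 in TfhA_4e4 and 89.4 to 130 elsewhere. Their ratio was 2.91 ± 0.396, 3.18 ± 0.392, 2.52 ± 0.0886 and 2.33 ± 0.291 across the Tfh2 numbers, 2.53 ± 0.107 in Tfh5_4e4 and 3.27 ± 0.357 in TfhA_4e4. TfhA_4e4 libraries (2.80 to 3.72) lay above all those of Tfh2_4e4 (2.39 to 2.66) and Tfh5_4e4 (2.36 to 2.69), but overlapped those of Tfh2_1e4, Tfh2_2e4 and Tfh2_6e4. The size of the ratio depends on how members are weighed. With each member given equal weight on the log2 scale the ratio of the class means was 11.8 in TfhA_4e4 and 5.52 to 7.20 elsewhere, and without Mcl1 and Bcl2l11, the members with the most counts, it was 2.71 and 0.886 to 1.49.

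Ratios of partners showed larger contrasts. Bcl2 to Bcl2l11 was 5.06 ± 1.32 in TfhA_4e4 (4.06 to 7.36) and 0.329 to 1.70 in the libraries of all other groups, with no overlap. Mcl1 to Pmaip1 was 5.68 ± 0.977, 9.68 ± 2.10, 12.5 ± 2.43 and 19.9 ± 3.09 across the Tfh2 numbers, 8.71 ± 1.76 in Tfh5_4e4 and 14.7 ± 4.69 in TfhA_4e4. Along the Tfh2 numbers the first ratio went from 1.12 ± 0.325 to 0.501 ± 0.0784 as the second climbed.

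**Figure D4:**
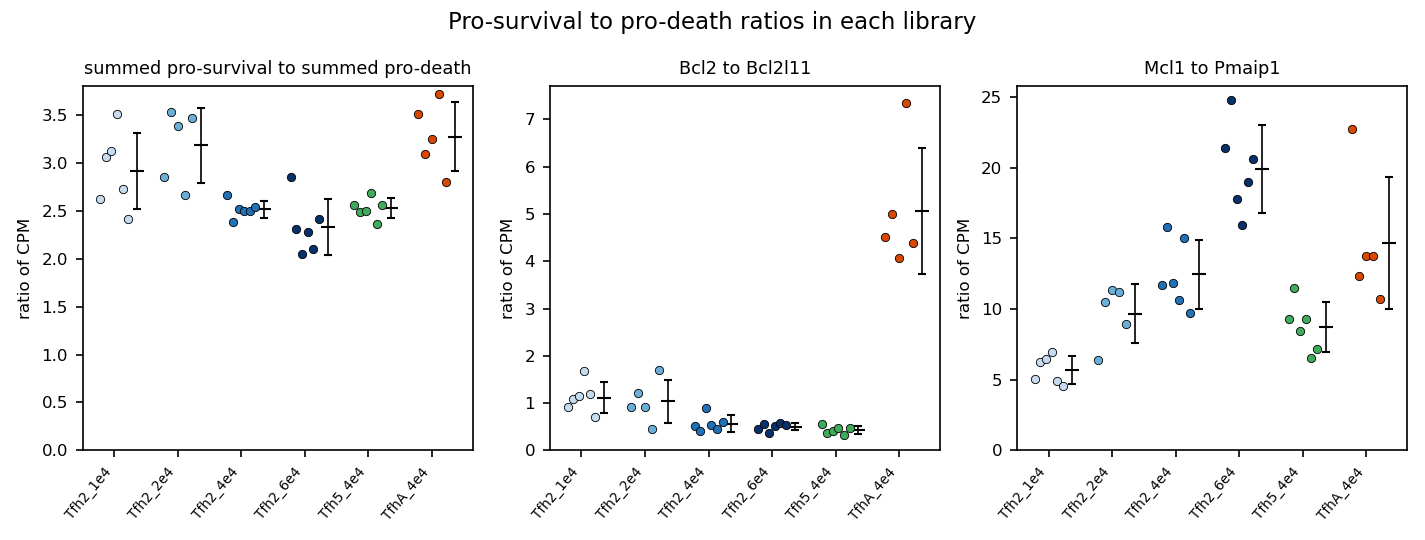
Ratios of CPM (y axes) in each library by group (x axis): summed pro-survival to summed pro-death, Bcl2 to Bcl2l11, and Mcl1 to Pmaip1. Points are libraries and the dash with its bar is the mean ± SD; the middle ratio is 4.06 or more in every TfhA_4e4 library and at most 1.70 elsewhere.

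Genes around the 9 members were read from lists of the same pathway. Of the other pro-survival relatives 3 of 5 could be tested. All 3 were higher in TfhA_4e4 than in Tfh2_4e4, against 15.5% of all genes. The median log2 fold change was 1.46, against -0.0087 over all genes tested. Bcl2l2, which encodes Bcl-w, rose by 1.20 (edgeR adjusted p = 0.00233) and Bcl2a1b, an A1 gene, by 1.46 (edgeR adjusted p = 0.0022). In TfhA_4e4 against Tfh5_4e4 0 of the 3 passed, with a median log2 fold change of 0.55, where 39.5% of all genes passed. Mean Bcl2a1b was 16.5 CPM in TfhA_4e4, 5.99 in Tfh2_4e4 and 16.1 in Tfh2_1e4. A1 genes are near-identical copies, so their counts may be split between them. Per doubling of the Tfh2 number Bcl2a1b fell, with a slope of -1.01 (edgeR adjusted p = 4.27e-08).

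Of the other pro-death relatives 6 of 8 could be tested, and 1 was higher and 3 lower in TfhA_4e4 than in Tfh2_4e4, against 15.5% and 17.4% of all genes. Bnip3 and Bnip3l, hypoxia-responsive genes that also drive the removal of mitochondria, had log2 fold changes of -0.91 and -0.95 (edgeR adjusted p = 1.51e-07 and 1.19e-08). Bmf, a BH3-only gene, fell by 1.50 (edgeR adjusted p = 0.0273) from 2.83 ± 1.43 CPM (n = 6) to 1.05 ± 0.809 (n = 5). Bad, another BH3-only gene, rose by 0.37 (edgeR adjusted p = 0.0149). Along the Tfh2 numbers Bnip3 rose from 68.7 ± 19.0 to 356 ± 22.8 CPM (n = 6 each), and its slope of 0.93 (edgeR adjusted p = 2.97e-21) was of the size of that of Bcl2l11.

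Downstream, 9 of 10 apoptosome and caspase genes could be tested, with 2 higher and 2 lower in TfhA_4e4 than in Tfh2_4e4, against 32.8% of all genes in either direction. Casp2, a caspase, was among the lower, with a log2 fold change of -0.47 (edgeR adjusted p = 0.0327). Of the inhibitors of apoptosis and their antagonists 6 of 7 were tested and 2 were higher, a share near the 32.8% of all genes. They were Birc2 by 0.98 (edgeR adjusted p = 5.11e-07) and Birc5, which also serves in cell division, by 0.86 (edgeR adjusted p = 1.11e-05).

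The death receptor arm had 9 of 10 genes tested, 4 higher and 2 lower in TfhA_4e4, against 15.5% and 17.4% of all genes. Fas, the receptor of Fas ligand, rose by 1.30 (edgeR adjusted p = 5.31e-05) and Ripk1, a kinase of the receptor complex, by 0.69 (edgeR adjusted p = 1.01e-06). Tnfrsf1a, a TNF receptor, fell by 1.24 (edgeR adjusted p = 1.54e-10) and Cflar, which blocks caspase-8, by 0.47 (edgeR adjusted p = 0.00317).

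Of 16 genes known to act on the members' transcription or stability 14 were tested, with 2 higher and 6 lower in TfhA_4e4 than in Tfh2_4e4, against 15.5% and 17.4% of all genes. Foxo1, a transcription factor of the FOXO family, fell from 338 ± 25.8 CPM (n = 6) to 88.8 ± 7.90 (n = 5), by 1.93 on the log2 scale (edgeR adjusted p = 6.04e-22). The FOXO motif was matched above in windows of Bcl2l11, which fell, and Bbc3, which rose. A link of Foxo1 to either gene was not tested. Il7r, the receptor chain through which IL-7 sustains Bcl-2, fell by 1.87 (edgeR adjusted p = 3.20e-14), and the IL-2 receptor chain gene Il2rb by 1.02 (edgeR adjusted p = 1.10e-13). Ddit3, the stress factor CHOP, rose by 1.95 (edgeR adjusted p = 1.40e-09). Mean Il7r was lowest in TfhA_4e4 (73.6 CPM), the group in which Bcl2 mRNA was highest. Elsewhere both genes rose with the Tfh2 number and both were lower in Tfh5_4e4 than in Tfh2_4e4. A link between them was not tested.

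Along the Tfh2 numbers 7 of the 14 were higher and 3 lower per doubling, against 24.1% and 22.8% of all genes. Between the ends, Tfh2_6e4 against Tfh2_1e4, 6 were higher and 3 lower, against 22.3% and 20.7%. The 3 lower between the ends were Trp53, E2f1 and Myb (log2 fold changes -0.95, -0.80 and -0.31). Among the higher in the slope, Il7r rose by 0.62 per doubling, Stat5a, a factor downstream of IL-2 and IL-7, by 0.58, Stat5b by 0.46 and Foxo1 by 0.29 (edgeR adjusted p = 2.17e-14, 4.33e-14, 1.29e-09 and 5.32e-11). In Tfh5_4e4 against Tfh2_4e4 1 of the 14 passed, against 3.11% of all genes. It was Il7r, which fell by 0.70 (edgeR adjusted p = 7.06e-04).

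Targets of p53 outside the family numbered 10, of which 9 were tested. In TfhA_4e4 against Tfh2_4e4 7 were higher and 1 lower, against 15.5% and 17.4% of all genes. The median log2 fold change was 1.28, against -0.0087 over all genes tested. Phlda3 rose by 2.80, Zmat3 by 1.36 and Ccng1 by 1.28 (edgeR adjusted p = 1.55e-11, 5.14e-09 and 5.16e-12), while Trp53inp1 fell by 1.09 (edgeR adjusted p = 2.37e-07). Of the family's own p53 targets, Bbc3 rose, Pmaip1 fell and Bax did not pass in the same comparison. In the Tfh2 slope 3 of the 9 were higher and 1 lower, a share near the 46.9% of all genes, with the largest slope for Cdkn1a, the cell cycle inhibitor p21, at 0.95 per doubling (edgeR adjusted p = 1.89e-21).

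In Tfh5_4e4 against Tfh2_4e4 3.11% of all genes passed, so few calls could come from lists this short. There were 0 calls among the other pro-survival genes (3 tested), the other pro-death genes (6), the caspases (9) and the death receptor arm (9). These zeros do not show that the lists stayed level. The inhibitors of apoptosis gave 1 call of 6 tested (Birc5, -0.52, edgeR adjusted p = 0.0365) and the p53 targets 2 of 9. The 2 were Cdkn1a (-0.57, edgeR adjusted p = 0.00287) and Trp53inp1 (0.50, edgeR adjusted p = 0.0385).

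For each member that passed at least once, the tested genes with the most similar log2 CPM over the 34 libraries were ranked by Pearson's r among 9303 genes, as a description. The closest to Bcl2 were Sco1, Icos and Btla (r = 0.93 each). Closest to Bcl2l1 were Zbtb32, Mthfd2 and Pkp4 (0.92, 0.92 and 0.92), and closest to Mcl1 were Gna13, Ets1 and Frmd6 (0.93, 0.92 and 0.92). For Bcl2l11 they were Runx3, Sema6b and Gpr132 (0.92 each), and for Pmaip1 Sox4, Pmepa1 and Ext1 (0.92, 0.89 and 0.88). Bbc3 was closest to Ripk1, Prxl2a and Zmynd8 (0.84, 0.83 and 0.83), and Bak1, whose levels overlap most between groups, to Dapk3, Mrpl28 and Cyba (0.69, 0.68 and 0.68). The libraries of a group share their condition, so the 34 values are not independent points.

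Some of these counts could include reads of other genes, because the strand setting and the treatment of ambiguous reads are not given in the sources used here. In the annotation Bcl2l1 overlaps Cox4i2 on the other strand, Bak1 overlaps Ggnbp1 on the other strand, and Bax, Bid and Bcl2 overlap predicted genes. Mcl1, Bcl2l11, Bbc3 and Pmaip1 overlap no annotated gene.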

How the data were processed

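The members and gene lists were chosen with earlier results of these data known. Lexogen 3-prime mRNA libraries were made from 50 ng of RNA, per the labels' protocols. Each library has 1 table of unnormalised counts from the authors, by numeric identifier, and its values were whole. STAR 2.7.2b, featureCounts 1.6.4 and mm10 are named in the submitters' processing notes, with no roles, and the strand setting is not given in the sources used here. Identifiers were matched to symbols in RefSeq's GRCm38.p6 table, where 25275 of 27179 had one. The 2 identifiers with the most counts, which had none, held 48.3% of all counts and stayed in the library totals.

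The 6 groups were modelled together in edgeR 4.0.16 (R 4.3.3), after TMM normalisation and filterByExpr by group. Its quasi-likelihood F-test (two-sided) was used with Benjamini-Hochberg adjustment across the 11357 genes tested and a threshold of 0.05. There were 8 comparisons. For the Tfh2 slope, a linear contrast set the 4 group means against the label number on a log2 scale. CPM have the SD over libraries, and log2 CPM used a prior count of 1. All 9 members are named, with up to 4 called genes per other list and comparison (mean log2 CPM 1 or more, smallest adjusted p first), and the 3 genes most like each member that passed. Some genes given by the rule are left out, and a few results are not reported here. Alternatives were DESeq2 1.42.0, RLE size factors, no filter, a replicate block, the mitochondrial rRNA share as covariate, only the groups compared, removal of the 2 largest identifiers, and leaving out libraries. The edgeR script was tested on simulated data.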

Additional observations from a re-analysis of the deposited data

Results flagged for a closer look

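In groups of 5 or 6 libraries, a library was singled out where its gap to the nearest other relative to the range of the group was over the 95% limit of Dixon. Chance flags about 1 in 20 groups, and 9 of 78 checks were flagged. Bcl2l1 was at 78.2 CPM in Tfh2_4e4 replicate 3, against 35.5 to 51.2 in the other libraries of that group, and at 49.4 CPM in Tfh2_6e4 replicate 1, against 33.6 to 39.1. Bcl2l11 was low in Tfh5_4e4 replicate 6 (23.7 CPM against 40.3 to 47.5) and in TfhA_4e4 replicate 5 (21.2 CPM against 29.4 to 31.5). The same TfhA_4e4 replicate 5 had the highest ratio of Bcl2 to Bcl2l11, 7.36 against 4.06 to 4.99. The ratio of Mcl1 to Pmaip1 was 22.8 in TfhA_4e4 replicate 1, against 10.7 to 13.8. Bcl2l1 to Bax, a ratio over a gene with few counts, was 86.4 in Tfh2_1e4 replicate 2, 81.8 in Tfh5_4e4 replicate 1 and 102.25 in TfhA_4e4 replicate 6, against highest values of 31.4, 28.2 and 36.3 in the other libraries of each group. The causes were not tested.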

How the results depend on the processing

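Of 1500 values of members under alternative settings, 1421 kept their direction and their side of the threshold, 31 lost a call, 13 gained a call and 35 changed sign. No value that had passed changed sign. For TfhA_4e4 against Tfh2_4e4 every call except that of Bak1 held in all alternatives run. RLE size factors and removal of the 2 largest identifiers changed no call of a member. The causes of the changes below were not tested.

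The call counts moved most from Tfh2_4e4 to Tfh2_6e4, where edgeR gave 0 members and 168 genes. There no filter on low counts gave 1 member (Bcl2l11), the mitochondrial covariate 1 (Pmaip1), DESeq2 2 members and 278 genes, and a fit of only the 2 groups 74 genes. Without Tfh2_4e4 replicate 3 and Tfh2_2e4 replicate 6 it gave 90 genes, and without single libraries 55 (Tfh2_6e4 replicate 5) to 269 genes (Tfh2_4e4 replicate 4) and 0 to 1 members. From 1e4 to 2e4, the covariate and the fit of only the 2 groups each gave 1 member, and leaving out single libraries 0 to 2. Without Tfh2_4e4 replicate 3 and Tfh2_2e4 replicate 6, Tfh5_4e4 against Tfh2_4e4 gave 1 member and 2e4 to 4e4 gave 2, and without single libraries both gave 1 to 2.

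Sign changes were all in log2 fold changes with a main adjusted p of 0.777 or more in edgeR. Without Tfh2_4e4 replicate 3 and Tfh2_2e4 replicate 6 the values were 0.16 for Bcl2l1 and 0.21 for Bax in Tfh5_4e4 against Tfh2_4e4, -0.039 for the Bax slope, 0.022 for Bcl2l1 and 0.033 for Bak1 from 1e4 to 2e4, and 0.36 for Bid from 2e4 to 4e4. With the mitochondrial covariate Bid was at 0.13 in TfhA_4e4 against Tfh5_4e4. Leaving out single libraries gave -0.15 to 0.13 for Bcl2l1 and -0.25 to 0.18 for Bax in Tfh5_4e4 against Tfh2_4e4. It gave -0.067 to 0.088 for the Bax slope and -0.051 to 0.38 for Bax from 1e4 to 6e4. From 1e4 to 2e4 the ranges were -0.091 to 0.022 for Bcl2l1, -0.19 to 0.033 for Bak1 and -0.0051 to 0.11 for Bbc3. Bid ranged from -0.53 to 0.23 from 2e4 to 4e4, and Bak1 from -0.054 to 0.17 from 4e4 to 6e4.

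Same-numbered libraries were checked for pairing: 15 of 80 pairs correlated over 0.1, and the best match of 15 of the 34 libraries was to their own number. Mean r between groups was 0.049 for libraries with the same number and -0.0098 for other numbers. The fit of all 6 groups did not use the numbers as pairs, although this check does not exclude a weak pairing. With the replicate number as a block, 582 genes passed in Tfh5_4e4 against Tfh2_4e4 (353 without it), and from 4e4 to 6e4 381 genes and 2 members (Bcl2l11 and Pmaip1). Bid was at 0.026 in TfhA_4e4 against Tfh5_4e4 and Bcl2l1 at 0.028 from 1e4 to 2e4, both reversed in sign. The block changed no other call of a member.

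The ratio of pro-survival to pro-death levels moved with the weighting. From class means of log2 CPM it was 6.86, 7.20, 6.89 and 6.93 across the Tfh2 numbers, 5.52 in Tfh5_4e4 and 11.8 in TfhA_4e4. Without Mcl1 and Bcl2l11 it was 1.11, 1.37, 1.30, 1.49, 0.886 and 2.71 in the same order. Depth limits Bax and Bid, with 58 to 132 counts per group.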
